A study of Mus musculus with 3 samples.

Results

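Natural killer (NK) cells of mouse bone marrow were read from 3 single-cell RNA libraries. A barcode was kept with at least 300 genes, at least 500 unique molecular identifiers (UMIs, the counted RNA molecules) and at most 10% mitochondrial UMIs. NK cells were then selected on their measured counts: at least 2 UMIs in all of Ncr1, Klrb1c and Klre1, none of Cd3d, Cd3e and Cd3g, at most 1 of Cd79a and Cd79b, and none of Siglech. The rule found 559 NK cells among 71014 cells, of which 278 of 22506 were in MI-E, 146 of 23455 in MI and 135 of 25053 in Sham.

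C57BL/6J mice gave marrow of the femur and the tibia, which was cleaned on a Ficoll-Paque gradient before 10x Genomics 3' v3.1 capture. MI-E is myocardial infarction with EMPA, as the labels write the agent, MI is myocardial infarction by ligation of the left anterior descending coronary artery through an opened chest under isoflurane, and Sham is the sham arm. The surgical text is the same for all 3 groups and does not say how the sham operation differed; age, sex, dose, time after surgery and the number of mice pooled are not in the labels used here. Each group is 1 library, so no value has a replicate. Intervals are exact 95% intervals that cover counting error only, no test was made, and treatment and library cannot be told apart.

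NK cells are innate lymphocytes that mature in the marrow and kill stressed or infected cells with perforin and granzymes. They read their targets through paired activating and inhibitory receptors of the Klr and Klra (Ly49) families, many of which signal through adaptors such as Tyrobp, Fcer1g and Hcst. Interleukin 15 keeps them alive, and they call in other cells through chemokines such as Ccl3, Ccl4, Ccl5 and Xcl1 and through interferon gamma.

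The label was checked on genes outside the rule. Nkg7, a granule membrane protein, was read in 86.7% of NK cells in MI-E (82.1% to 90.5%), 86.3% in MI (79.6% to 91.4%) and 96.3% in Sham (91.6% to 98.8%). T cell receptor constant RNA (Trac, Trbc1, Trbc2 or Trdc) was read in 65.8% of NK cells in MI-E, 54.8% in MI and 65.9% in Sham. The same was read in 94.6% of T cells in MI-E, 93.1% in MI and 93.5% in Sham, and in 0.970% of B cells in MI-E, 0.632% in MI and 0.701% in Sham. Trbc1 was the most frequent in NK cells, in 46.8% of cells in MI-E, 41.1% in MI and 47.4% in Sham. Trdc was in 12.9% in MI-E, 6.85% in MI and 13.3% in Sham, and Trac in 3.60% in MI-E, 4.79% in MI and 2.96% in Sham. NK cells are known to transcribe unrearranged Trbc genes. Of 15 T cell markers, 11 had a UMI in MI-E, 10 in MI and 7 in Sham, with Cd3d, Cd3e and Cd3g at 0 by rule, and the list summed to 487 CPM in MI-E, 426 in MI and 462 in Sham (CPM, UMIs per 1000000 UMIs of the NK cells of a library). Of 9 measured gamma-delta T cell markers, 5 had a UMI in MI-E, 5 in MI and 3 in Sham, and they summed to 71.8 CPM in MI-E, 38.5 in MI and 81.3 in Sham. Of 10 markers of group 1 innate lymphoid cells (ILC1), 10 had a UMI in MI-E, 9 in MI and 10 in Sham, and they summed to 313 CPM in MI-E, 272 in MI and 304 in Sham. The part of such cells in the results was not tested.

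The genes of the rule are given as a description. Ncr1, which encodes the receptor NKp46, was in 54.7% of NK cells in MI-E, 36.3% in MI and 57.8% in Sham. Klrb1c, which encodes NK1.1, was in 85.3% in MI-E, 82.2% in MI and 76.3% in Sham, and Klre1, an NK lectin-like receptor, in 74.1% in MI-E, 63.7% in MI and 84.4% in Sham. Cells just inside the limit, with 2 UMIs of the 3 genes, numbered 75 in MI-E, 73 in MI and 27 in Sham, with Nkg7 in 85.3% of them in MI-E, 84.9% in MI and 92.6% in Sham. Cells just outside it, with 1 UMI, numbered 120 in MI-E, 103 in MI and 37 in Sham, with Nkg7 in 56.7% of them in MI-E, 59.2% in MI and 51.4% in Sham. Gzma was at 1340 CPM in MI-E, 1672 in MI and 2553 in Sham just inside, and at 425 CPM in MI-E, 465 in MI and 628 in Sham just outside, so cells with 1 UMI also carried NK RNA, at a lower level.

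Some barcodes in the NK gate held much RNA of other marrow cells, and this differed between the libraries. The median depth of NK cells was 1529 UMIs in MI-E, 1399.5 in MI and 1804 in Sham, but cells above 5000 UMIs held 46.5% of all NK UMIs in MI-E (32 cells), 53.7% in MI (19 cells) and 42.5% in Sham (20 cells). All 17 neutrophil markers had a UMI in each library and summed to 65759 CPM in MI-E, 77227 in MI and 20109 in Sham. The 13 erythroid markers summed to 8487 CPM in MI-E, 1883 in MI (Klf1 at 0) and 24023 in Sham, and the 12 basophil and mast cell markers to 254 CPM in MI-E, 241 in MI and 5364 in Sham. Cells with over 2% of their UMIs from 30 markers of other lineages were therefore left out in a second reading, chosen after seeing the data. The cells kept are called other-lineage-low NK cells. Prss34, Mcpt8, Cpa3, the globin genes, S100a8, S100a9, Lcn2, Fn1 and Vcan are among the 30 markers. Elane, Mpo, Prtn3, Ctsg, Cd74, H2-Ab1 and H2-Eb1 are too. Lower levels of these genes in the cells kept therefore follow from the limit.

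This second reading kept 228 of 278 NK cells in MI-E, 118 of 146 in MI and 108 of 135 in Sham, at median depths of 1402.5 UMIs in MI-E, 1197.5 in MI and 1638.5 in Sham. The neutrophil list then summed to 4763 CPM in MI-E, 6820 in MI and 2509 in Sham, the erythroid list to 645 CPM in MI-E, 1080 in MI and 2314 in Sham, and the basophil list to 210 CPM in MI-E, 223 in MI and 352 in Sham. These lists share markers with the limit, so lower sums follow from it. The difference between libraries in neutrophil RNA was smaller but still present, and its part in the results was not tested. Levels are given for all NK cells first. No barcode was an NK cell in 2 libraries, although 152 to 167 barcodes of kept cells were shared between pairs of libraries.

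**Figure D1:**
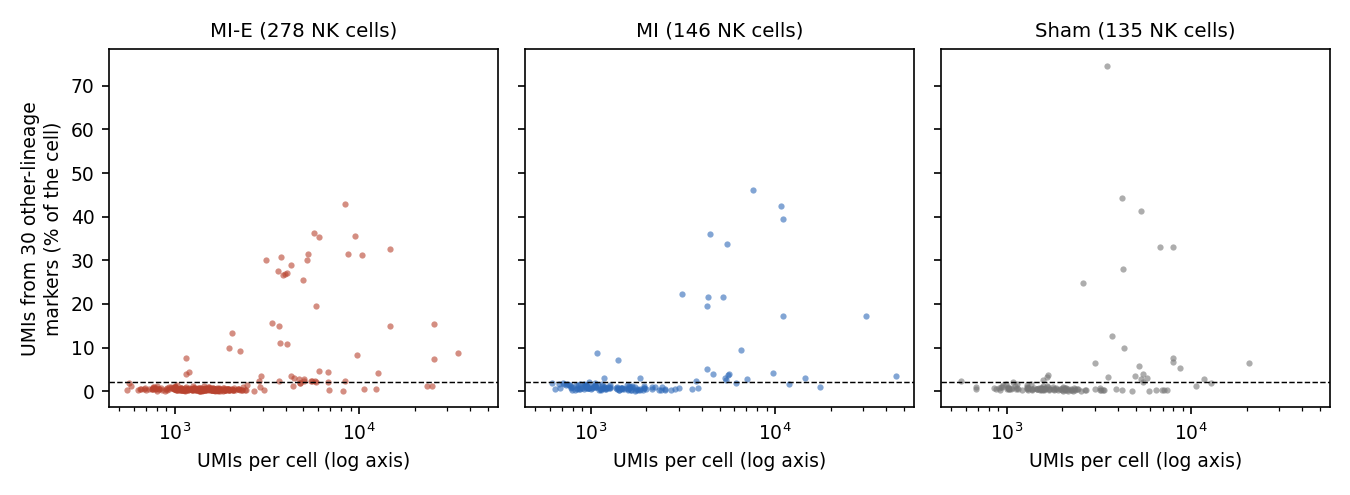
Each point is 1 NK cell of the MI-E, MI or Sham library, with its UMIs on the horizontal log axis and the percent of them from 30 markers of other lineages on the vertical axis; the dashed line is the 2% limit. Above the line lie 50 of 278 cells in MI-E, 28 of 146 in MI and 27 of 135 in Sham, among them 26 of the 32 cells above 5000 UMIs in MI-E, 16 of 19 in MI and 13 of 20 in Sham.

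NK cells made up a larger share of kept marrow cells in MI-E than in MI or Sham. They were 1.24% of cells in MI-E (1.10% to 1.39%), 0.622% in MI (0.526% to 0.732%) and 0.539% in Sham (0.452% to 0.637%). The ratio of shares was 2.29 for MI-E over Sham (1.86 to 2.84) and 1.98 for MI-E over MI (1.62 to 2.44). For MI over Sham it was 1.16 (0.908 to 1.47), an interval that holds 1. On the log2 scale that ratio ran from -0.77 to 0.63 over the other gates and filters, while MI-E over Sham ran from 0.90 to 1.37 and MI-E over MI from 0.58 to 1.68.

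The denominator mattered for MI, because B cells were 28.8% of cells in MI-E, 21.6% in MI and 52.9% in Sham. Among NK, T and B cells together, NK cells were 3.76% in MI-E (278 of 7395, 3.34% to 4.22%), 2.54% in MI (146 of 5747, 2.15% to 2.98%) and 0.982% in Sham (135 of 13749, 0.824% to 1.16%). The ratios were 3.83 for MI-E over Sham (3.11 to 4.74), 2.59 for MI over Sham (2.03 to 3.29) and 1.48 for MI-E over MI (1.21 to 1.82). On the log2 scale MI over Sham was 1.37, but 0.41 without cells with over 5 UMIs of S100a8 and S100a9 and 0.71 with a gate of 3 UMIs. MI-E over MI was 0.57, but 0.18 without cells with T cell receptor constant RNA. T cells were 2.78% of cells in MI-E, 2.29% in MI and 1.41% in Sham, so NK cells per 100 T cells came to 44.5 in MI-E, 27.2 in MI and 38.2 in Sham.

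**Figure D2:**
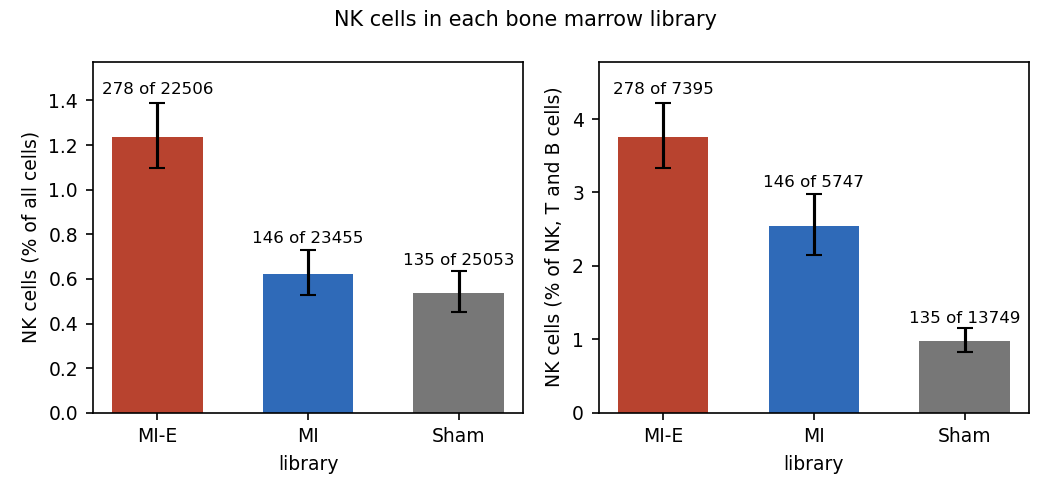
Bars give NK cells as a percent of all kept cells (left) and of NK, T and B cells (right) in MI-E, MI and Sham; error bars are exact 95% binomial intervals and the counts stand above them. MI-E is highest on both scales, at 1.24% of all kept cells and 3.76% of lymphocytes, and the intervals of MI and Sham are apart only on the right.

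The largest differences over all genes were those of other lineages. Among 3149 genes with at least 50 CPM on average in the pair, 109 (3.46%) were at least 2-fold higher in MI over Sham and 75 (2.38%) at least 2-fold lower. For MI-E over Sham the counts were 84 higher (2.64%) and 59 lower (1.85%) of 3181, and for MI-E over MI 27 higher (0.831%) and 25 lower (0.769%) of 3250. Among other-lineage-low NK cells they were 182 higher (5.55%) and 86 lower (2.62%) of 3279 for MI over Sham, 136 higher (4.13%) and 74 lower (2.25%) of 3293 for MI-E over Sham, and 70 higher (2.03%) and 58 lower (1.68%) of 3449 for MI-E over MI. Scaling by the trimmed mean of M values in place of the total would move every log2 ratio of other-lineage-low cells by -0.13 for MI over Sham, -0.10 for MI-E over Sham and 0.05 for MI-E over MI. The counts describe pairs of libraries, and the 3 comparisons share libraries.

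The 10 genes ranked highest in MI over Sham were Elane, Chil3, Prtn3, Vcan, Ifitm6, Hp, Dstn, Mpo, Mt1 and Fn1, mostly granule and matrix genes of neutrophil and monocyte lineages, with ratios of 3.22 (Fn1) to 16.1 (Vcan). The 10 ranked lowest were Prss34, Mcpt8, Hbb-bs, Hbb-bt, Hba-a2, Hba-a1, Gata2, Cpa3, Fosb and Ccl4. Prss34, a basophil protease, had 4 UMIs in MI-E, 1 in MI and 1132 in Sham, and 99.6% of those in Sham lay in 3 cells. After other-lineage cells were left out it had 3 UMIs in MI-E, 1 in MI and 2 in Sham, and Mcpt8, another basophil protease, had 5 in MI-E, 1 in MI and 1 in Sham. Ccl4, a chemokine that NK cells are known to make, kept its order there, at 210 CPM in MI-E, 119 in MI and 538 in Sham.

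For MI-E over Sham the genes ranked highest were Chil3, Cstdc4, Vcan, Wfdc21, Ifitm6, S100a8, Lcn2, Lrg1, Hp and S100a9, with ratios of 2.74 (S100a9) to 23.6 (Cstdc4). Those ranked lowest were Prss34, Mcpt8, Cpa3, Gata2, H2-Ab1, Fosb, Cd74, Hba-a2, H2-Eb1 and Hbb-bt, which are genes of basophils and mast cells, red cells and MHC class II cells apart from the immediate early gene Fosb. S100a8, a neutrophil alarmin, was at 26478 CPM in MI-E, 28412 in MI and 7484 in Sham, and at 1168 CPM in MI-E, 1714 in MI and 725 in Sham among other-lineage-low NK cells. Over MI, the genes ranked high in MI-E included Hbb-bs, Hbb-bt, Hba-a1, Hba-a2, Chd3, Cstdc4, Klra8, Dusp1 and Pim1, and those ranked lowest were Elane, Ctsg, H2-Ab1, Rgcc, Ms4a3, Mpo, H2-Eb1, Cd74, Snhg4 and Snhg3. In MI-E, 3 cells held between 87.8% (Hba-a2) and 93.8% (Hbb-bs) of the UMIs of each of the 4 globin genes. Without the other-lineage cells the globin genes lay lower in MI-E than in MI, at log2 ratios of -1.50 (Hbb-bt) to -0.54 (Hba-a1), and Elane, Mpo, Cd74, H2-Ab1, H2-Eb1 and Snhg4 lay higher, at 0.23 (Snhg4) to 1.57 (Cd74). In MI-E, the richest of the cells kept held between 22.2% (H2-Ab1) and 60.3% (Mpo) of the UMIs of each of the genes that lay higher. Cd74 had 38 UMIs in MI-E and 6 in MI there. The part of doublets and free RNA in these differences was not tested; the doublet caller Scrublet marked 45 NK cells in MI-E, 21 in MI and 11 in Sham.

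Gzma, Gzmb, Prf1 and Nkg7 had lower levels in both infarct libraries than in Sham in all NK cells, while the granule list as a whole did not. Gzma, which encodes granzyme A, stood at 1659 CPM in MI-E, 1474 in MI and 3693 in Sham, a ratio of 0.449 for MI-E over Sham (0.416 to 0.485) and 0.399 for MI over Sham (0.362 to 0.439). Without the other-lineage cells Gzma was at 2454 CPM in MI-E, 2550 in MI and 4861 in Sham, with ratios of 0.505 for MI-E (0.463 to 0.550) and 0.525 for MI (0.471 to 0.584). Nkg7 was at 923 CPM in MI-E, 894 in MI and 1742 in Sham, and at 1327 CPM in MI-E, 1460 in MI and 2280 in Sham among other-lineage-low cells. In both readings the infarct libraries lay nearer to each other than to Sham in these abundant members of the granule list. T cells also had lower Nkg7, at log2 ratios to Sham of -0.66 for MI-E and -0.65 for MI. Those of NK cells were -0.92 for MI-E and -0.96 for MI. Gzma, which few T cells had, was at -1.95 for MI-E and -4.72 for MI in T cells.

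Gzmb, the gene of granzyme B, was at 136 CPM in MI-E, 137 in MI and 278 in Sham, and at 200 CPM in MI-E, 265 in MI and 394 in Sham among other-lineage-low NK cells. Prf1, the gene of the pore-forming perforin, was at 221 CPM in MI-E, 217 in MI and 378 in Sham, and at 340 CPM in MI-E, 405 in MI and 509 in Sham there. The interval of the MI over Sham ratio of Prf1 holds 1 in that reading (0.797, 0.591 to 1.07), while that of MI-E over Sham does not (0.668, 0.519 to 0.860). Cells with over 5 UMIs of S100a8 and S100a9 were 30.6% of NK cells in MI-E, 56.8% in MI and 14.8% in Sham. When they were left out, MI lay above Sham in Gzmb and Prf1 (log2 ratios of 0.47 for Gzmb and 0.43 for Prf1) and below it in Gzma (-0.24). Nkg7 of MI was then level with Sham, at a log2 ratio of -0.0077.

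Sham was also highest in the share of NK cells with these RNAs once depth was made equal. Other-lineage-low NK cells thinned to 1000 UMIs each, 191 in MI-E, 80 in MI and 98 in Sham, had Gzma in 66.0% in MI-E (58.8% to 72.7%), 62.5% in MI (51.0% to 73.1%) and 79.6% in Sham (70.3% to 87.1%). Without thinning the shares of the same cells were 75.9% in MI-E, 75.0% in MI and 82.7% in Sham. Cells under 1000 UMIs were left out of both kinds of share, here and below. Thinned Gzmb was in 17.3% in MI-E, 23.8% in MI and 32.7% in Sham (26.2% in MI-E, 25.0% in MI and 45.9% in Sham without thinning). Thinned Prf1 was in 28.8% in MI-E, 38.8% in MI and 40.8% in Sham (39.3% in MI-E, 46.2% in MI and 64.3% in Sham without thinning). The intervals of MI and Sham overlap for all 3 genes after thinning, and those of MI-E and Sham for Gzma and Prf1. B cells, which should lack Gzma, had it in 0.128% in MI-E, 0.165% in MI and 0.148% in Sham after the same thinning. These were the 4700 B cells in MI-E, 3637 in MI and 12182 in Sham with at least 1000 UMIs. Before thinning, all B cells had median depths of 1238 UMIs in MI-E, 1234 in MI and 1574 in Sham.

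Other granule genes went the opposite way, so the list as a whole was balanced. Of its 19 members at 20 CPM or more, 9 were higher and 10 lower in MI-E over Sham, with a median log2 ratio of -0.01, beside 56.4% of 6297 genes higher and a median of 0.07. For MI over Sham 9 were higher and 10 lower, with a median of -0.04, beside 54.2% of genes higher and a median of 0.05. Rab27a, a small GTPase that docks granules at the membrane, was at 130 CPM in MI-E, 93.9 in MI and 39.3 in Sham. Among other-lineage-low NK cells it had 58 UMIs in MI-E, 23 in MI and 2 in Sham, a ratio of 16.7 for MI-E over Sham (4.43 to 141) and 14.1 for MI over Sham (3.48 to 123), read in 49 cells in MI-E, 20 in MI and 2 in Sham. These are the highest ratios among the alternatives run, and with a gate of 3 UMIs the log2 ratio of Rab27a was 0.18 for MI over Sham.

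Serpinb6b, a serpin that inhibits proteases, was at 149 CPM in MI-E, 161 in MI and 89.2 in Sham, with ratios to Sham of 1.67 for MI-E (1.13 to 2.53) and 1.81 for MI (1.18 to 2.82). Lamp2, a membrane protein of lysosomes, was at 118 CPM in MI-E, 128 in MI and 63.0 in Sham. Srgn, the proteoglycan that packs granules, was at 346 CPM in MI-E, 605 in MI and 572 in Sham and so was lowest in MI-E. Ctsw, a cathepsin of cytotoxic lymphocytes, was at 343 CPM in MI-E, 222 in MI and 399 in Sham and so was lowest in MI. Ctsd, a general lysosomal protease, was at 411 CPM in MI-E, 431 in MI and 606 in Sham.

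Promoter sequences are shown for a pair of genes that were low in both infarct libraries, Gzma and Xcl1, and a pair that were high, Il7r and Rab27a; they were chosen after their values were seen. Each is the 250 bases before the RefSeq start in GRCm38.p6, read 5′ to 3′ on the strand of the gene. Capitals mark matches, on either strand, to GGTGTGA (T-box), AGGAAGT (ETS) and TGTGGTT (RUNX), motifs of factor families that act in NK cells.
Gzma, chr13:113100982-113101231, minus strand: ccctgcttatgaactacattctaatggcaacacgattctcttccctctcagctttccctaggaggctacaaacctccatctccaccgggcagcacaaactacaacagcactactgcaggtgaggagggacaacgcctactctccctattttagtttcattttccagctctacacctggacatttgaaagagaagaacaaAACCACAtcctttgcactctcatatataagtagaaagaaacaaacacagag
Xcl1, chr1:164935523-164935772, minus strand: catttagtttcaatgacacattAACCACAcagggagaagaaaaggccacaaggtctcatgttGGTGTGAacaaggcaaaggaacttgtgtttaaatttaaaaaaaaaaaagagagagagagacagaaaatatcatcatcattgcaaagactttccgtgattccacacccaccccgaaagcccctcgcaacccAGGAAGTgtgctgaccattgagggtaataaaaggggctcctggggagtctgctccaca
Il7r, chr15:9529877-9530126, minus strand: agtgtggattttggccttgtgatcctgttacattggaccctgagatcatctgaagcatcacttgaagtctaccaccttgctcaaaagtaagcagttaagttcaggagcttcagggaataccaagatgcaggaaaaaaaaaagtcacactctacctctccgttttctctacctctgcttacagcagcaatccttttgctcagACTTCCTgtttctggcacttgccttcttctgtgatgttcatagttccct
Rab27a, chr9:73044560-73044809, plus strand: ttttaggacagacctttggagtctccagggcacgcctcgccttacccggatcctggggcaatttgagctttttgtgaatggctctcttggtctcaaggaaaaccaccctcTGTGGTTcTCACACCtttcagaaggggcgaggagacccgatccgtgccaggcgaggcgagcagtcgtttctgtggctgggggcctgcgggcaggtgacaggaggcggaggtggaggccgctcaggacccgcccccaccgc

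These letters occur in 3.33% (T-box), 7.69% (ETS) and 4.40% (RUNX) of 32851 promoters of the same length. Gzma held a RUNX match whose first base lies 51 bases before the start. Xcl1 held T-box, ETS and RUNX matches 188, 58 and 228 bases before it, Il7r an ETS match at 49, and Rab27a a T-box and a RUNX match at 132 and 140. A match is a run of letters and was not tested as a site. In the GENCODE M21 annotation of the same build, Gzma spans chr13:113093825-113100981, Xcl1 chr1:164931644-164935527, Il7r chr15:9505788-9530176 and Rab27a chr9:73044854-73097629. By this annotation the Il7r stretch lies wholly inside the gene, so its ETS match lies before the RefSeq start only. The last bases of the Xcl1 stretch also lie inside the gene.

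The chemokines Xcl1, Ccl3 and Ccl4 lay far below Sham in both infarct libraries. Xcl1, which draws cross-presenting dendritic cells, was at 105 CPM in MI-E, 74.7 in MI and 349 in Sham, with ratios of 0.301 for MI-E over Sham (0.225 to 0.401) and 0.214 for MI over Sham (0.140 to 0.318). Ccl4, which draws monocytes and T cells, was at 129 CPM in MI-E, 60.2 in MI and 412 in Sham, with ratios of 0.313 for MI-E (0.241 to 0.406) and 0.146 for MI (0.0918 to 0.224). Ccl3, its neighbour on chromosome 11, was at 65.2 CPM in MI-E, 36.1 in MI and 244 in Sham. These 3 genes stayed below Sham in MI-E and in MI under all 12 alternatives run. The fall of Xcl1 was also seen in T cells, at log2 ratios to Sham of -1.64 for MI-E and -2.25 for MI. Those of NK cells were -1.73 for MI-E and -2.22 for MI. Ccl4 in T cells was at -1.43 for MI-E and 0.51 for MI, and Ccl3 at -0.44 for MI-E and 1.57 for MI. These are sums over cells. Among T cells with at least 1000 UMIs, Ccl4 was read in 5.52% in MI-E, 3.87% in MI and 10.4% in Sham. Ccl3 was read in 3.01% of them in MI-E, 5.22% in MI and 4.34% in Sham. The higher Ccl4 level of MI T cells thus came with a smaller share of cells than in Sham.

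A smaller share of NK cells in the infarct libraries had these RNAs. Xcl1 was read in 43 of 228 other-lineage-low NK cells in MI-E, 16 of 118 in MI and 41 of 108 in Sham, and Ccl4 in 48 in MI-E, 14 in MI and 38 in Sham. Thinned to 1000 UMIs, Xcl1 was in 12.0% in MI-E (7.79% to 17.5%), 12.5% in MI (6.16% to 21.8%) and 27.6% in Sham (19.0% to 37.5%), against 20.9% in MI-E, 16.2% in MI and 40.8% in Sham without thinning. Thinned Ccl4 was in 14.7% in MI-E (9.97% to 20.5%), 7.50% in MI (2.80% to 15.6%) and 30.6% in Sham (21.7% to 40.7%), against 22% in MI-E, 8.75% in MI and 36.7% in Sham without thinning. B cells thinned alike had Ccl4 in 0.681% in MI-E, 0.962% in MI and 1.25% in Sham.

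No single cell made up the level in Sham: the richest held 23 of 125 Xcl1 UMIs and 26 of 127 Ccl4 UMIs of the other-lineage-low cells. Cells with both chemokines numbered 8 in MI-E, 1 in MI and 12 in Sham, so most cells with Xcl1 had no Ccl4 UMI. At these depths a cell can hold an RNA of which no UMI was read. Whether the same cells make both chemokines was not tested.

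Ccl5, the most abundant chemokine of NK cells, did not follow this pattern. It was at 5599 CPM in MI-E, 6565 in MI and 7602 in Sham, and at 8187 CPM in MI-E, 11188 in MI and 10036 in Sham among other-lineage-low cells, where MI lay above Sham and MI-E below both. Ifng, the gene of interferon gamma, was rare, with 21 UMIs in MI-E, 10 in MI and 19 in Sham, and its ratios to Sham of 0.561 for MI-E (0.287 to 1.10) and 0.483 for MI (0.201 to 1.09) have intervals that hold 1. Ltb, which encodes lymphotoxin beta, was at 193 CPM in MI-E, 171 in MI and 157 in Sham. Of 9 measured cytokine and chemokine genes, 3 were higher and 6 lower in each infarct library over Sham, beside 56.4% of all genes higher for MI-E and 54.2% for MI. The medians were -0.44 for MI-E and -0.21 for MI, against -0.28 for MI-E and 0.16 for MI among other-lineage-low cells.

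**Figure D3:**
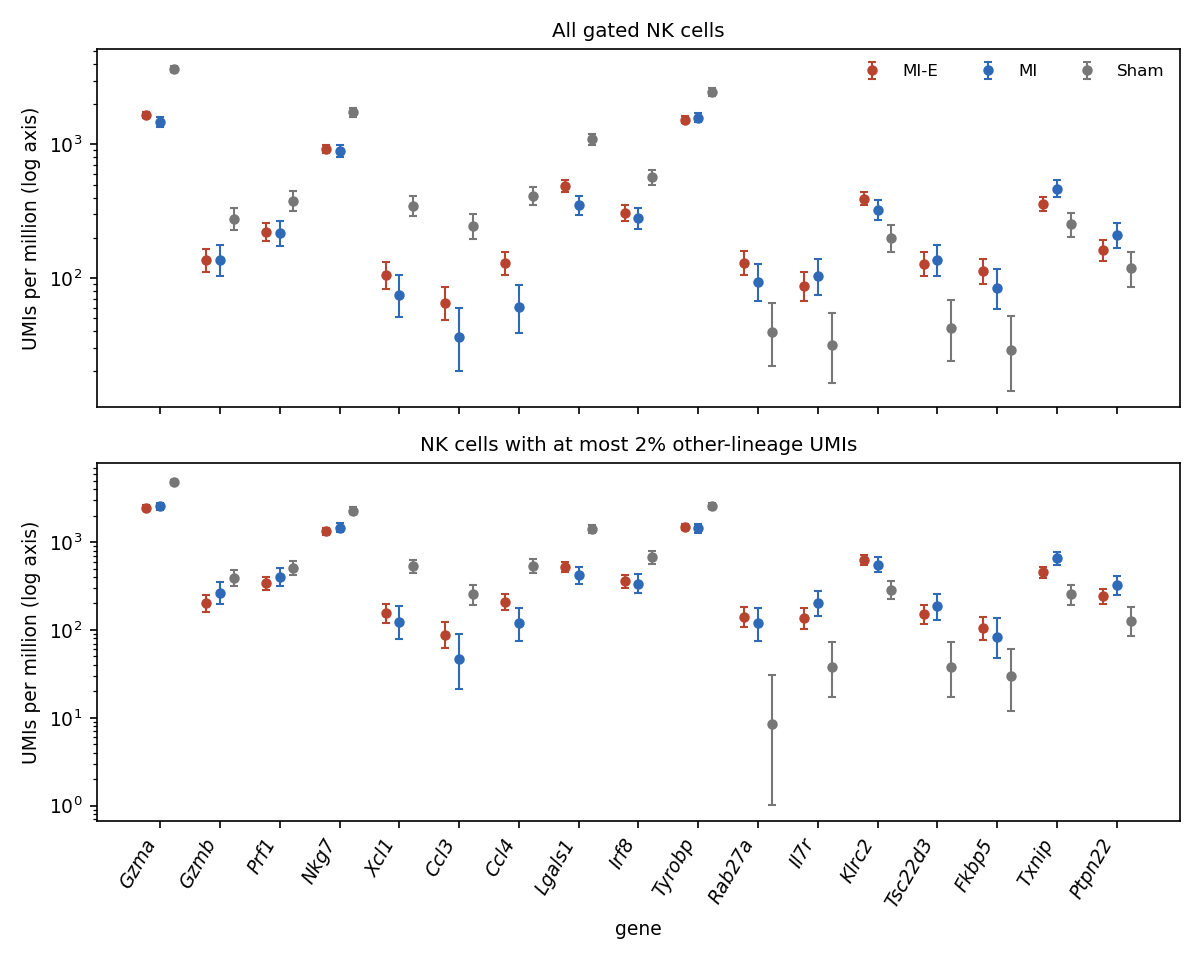
Points give CPM on a log axis for 17 genes in MI-E, MI and Sham, in all NK cells (top) and in those with at most 2% other-lineage UMIs (bottom); bars are exact 95% Poisson intervals. Gzma, Nkg7, Xcl1, Ccl3, Ccl4, Lgals1, Irf8 and Tyrobp lie below Sham in both infarct libraries in both panels, while Rab27a, Il7r, Klrc2, Tsc22d3, Fkbp5 and Txnip lie above it.

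Most activating receptors had lower levels in MI than in Sham in all NK cells, and Klrc2 was an exception. Of 17 measured members outside the rule, 4 were higher and 13 lower in MI-E over Sham (median -0.22) and 2 higher and 15 lower in MI over Sham (median -0.40), beside 56.4% of all genes higher for MI-E and 54.2% for MI. Among other-lineage-low NK cells 8 were higher and 9 lower in MI-E (median -0.25) and 6 higher and 11 lower in MI (median -0.17). Over all genes in those cells 58.6% were higher for MI-E and 56.5% for MI. Without cells with over 5 UMIs of S100a8 and S100a9 the median turned to 0.23 for MI-E over Sham and 0.034 for MI over Sham. Klrk1, the gene of NKG2D, was at 592 CPM in MI-E, 496 in MI and 653 in Sham, and Klrd1, the gene of the CD94 chain, at 516 CPM in MI-E, 588 in MI and 711 in Sham. Klrc2, which encodes NKG2C, an activating partner of CD94, was at 392 CPM in MI-E, 325 in MI and 199 in Sham, with ratios to Sham of 1.97 for MI-E (1.53 to 2.57) and 1.63 for MI (1.22 to 2.19). Without the other-lineage cells Klrc2 was at 623 CPM in MI-E, 556 in MI and 288 in Sham, with ratios of 2.16 for MI-E (1.65 to 2.87) and 1.93 for MI (1.41 to 2.65). Klrc and Klra genes are families of near copies, so their reads may be split between members and single-gene levels are uncertain.

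Klra8, the gene of the activating receptor Ly49H, was at 416 CPM in MI-E, 193 in MI and 383 in Sham, so MI-E and Sham lay close and MI below both. Among other-lineage-low NK cells it was at 574 CPM in MI-E, 332 in MI and 521 in Sham. Klra4, the gene of the activating receptor Ly49D, was at 499 CPM in MI-E, 325 in MI and 393 in Sham, and at 697 CPM in MI-E, 603 in MI and 538 in Sham there, where MI no longer lay lowest.

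Inhibitory receptors were lower in MI at the median. Of 11 measured members, 5 were higher and 6 lower in MI-E over Sham (median -0.03) and 4 higher and 7 lower in MI over Sham (median -0.35). Over all genes 56.4% were higher for MI-E and 54.2% for MI. The medians were 0.12 for MI-E and -0.34 for MI among other-lineage-low NK cells. Klra7, the gene of Ly49G, was at 213 CPM in MI-E, 161 in MI and 299 in Sham. Klri2, a partner of Klre1 counted on this list, was at 230 CPM in MI-E, 183 in MI and 189 in Sham. Whether it inhibits or activates was not tested. Klra9 was at 157 CPM in MI-E, 161 in MI and 160 in Sham, so among these 3 it was Klra7 that lay below Sham in both infarct libraries. Klra1, the gene of Ly49A, was at 47.9 CPM in MI-E, 31.3 in MI and 110 in Sham, with ratios to Sham of 0.435 for MI-E (0.271 to 0.695) and 0.284 for MI (0.140 to 0.540). With every cell with T cell receptor constant RNA left out, Klra1 lay above Sham in both, at log2 ratios of 0.85 for MI-E and 0.65 for MI.

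Tyrobp, the adaptor DAP12 that carries the signal of activating Ly49 receptors, was lower in both infarct libraries. It was at 1527 CPM in MI-E, 1578 in MI and 2471 in Sham, and at 1474 CPM in MI-E, 1444 in MI and 2598 in Sham among other-lineage-low NK cells, with ratios there of 0.567 for MI-E over Sham (0.506 to 0.636) and 0.556 for MI over Sham (0.481 to 0.641). Hcst, the adaptor DAP10 of NKG2D, was at 657 CPM in MI-E, 614 in MI and 585 in Sham. Fcer1g, the adaptor of NKp46 and CD16, was at 1501 CPM in MI-E, 1828 in MI and 2033 in Sham, and at 1603 CPM in MI-E, 2187 in MI and 2115 in Sham among other-lineage-low cells, where MI-E was lowest. Of 20 measured adaptors and kinases, 10 were higher and 10 lower in MI-E over Sham (median -0.01) and 6 higher and 14 lower in MI over Sham (median -0.19). Over all genes 56.4% were higher for MI-E and 54.2% for MI. The medians were -0.16 for MI-E and 0.01 for MI among other-lineage-low cells. Sh2d1a, the adaptor SAP, was at 65.2 CPM in MI-E, 91.5 in MI and 170 in Sham, and its log2 ratio for MI-E over Sham was -0.061 after thinning. Ptpn22, a phosphatase that damps antigen receptor signals, was at 162 CPM in MI-E, 210 in MI and 118 in Sham, with a ratio of 1.78 for MI over Sham (1.22 to 2.60).

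Cytokine receptor genes stood higher at the median among other-lineage-low NK cells of both infarct libraries. There 17 of 23 were higher in MI-E over Sham (median 0.45) and 16 of 23 in MI over Sham (median 0.40), beside 58.6% of all genes for MI-E and 56.5% for MI, and medians of all genes of 0.13 for MI-E and 0.10 for MI. In all NK cells the counts were 14 of 23 for MI-E (median 0.15) and 11 of 23 for MI (median -0.05). Il7r, the receptor chain for interleukin 7, was at 87.8 CPM in MI-E, 104 in MI and 31.5 in Sham, and at 137 CPM in MI-E, 203 in MI and 38.1 in Sham among other-lineage-low cells, with ratios there of 3.59 for MI-E over Sham (1.76 to 8.25) and 5.31 for MI over Sham (2.53 to 12.5). It was read in 28 of those cells in MI-E, 15 in MI and 9 in Sham, and 3 cells held 48.7% of the UMIs of MI. T cells also had more Il7r, at log2 ratios to Sham of 1.21 for MI-E and 1.45 for MI, beside 1.48 for MI-E and 1.72 for MI in all NK cells. B cells had less, at -0.45 for MI-E and -0.73 for MI.

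Il2rb, the shared chain of the receptors for interleukins 2 and 15, was at 887 CPM in MI-E, 629 in MI and 797 in Sham. Jak1, its kinase, was at 681 CPM in MI-E, 489 in MI and 506 in Sham, and Ifngr1, a chain of the interferon gamma receptor, at 447 CPM in MI-E, 590 in MI and 475 in Sham. The chains of the interleukin 18 receptor were higher in both infarct libraries among other-lineage-low cells, Il18r1 at 462 CPM in MI-E, 478 in MI and 339 in Sham. In the same cells Il18rap was at 550 CPM in MI-E, 535 in MI and 369 in Sham.

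Most homing and egress genes had lower levels in MI than in Sham in all NK cells. Of 22 measured, 10 were higher and 12 lower in MI-E over Sham (median -0.15) and 3 higher and 19 lower in MI over Sham (median -0.46), beside 56.4% of all genes higher for MI-E and 54.2% for MI. Among other-lineage-low NK cells 9 were higher and 13 lower in either comparison, with medians of -0.03 for MI-E and -0.28 for MI, beside 58.6% of all genes higher for MI-E and 56.5% for MI. Ccr2, the receptor for monocyte chemoattractant chemokines, was at 742 CPM in MI-E, 446 in MI and 567 in Sham. Selplg, the ligand of selectins, was at 612 CPM in MI-E, 462 in MI and 577 in Sham. Klf2, a transcription factor that controls egress receptors, was low in both infarct libraries, at 261 CPM in MI-E, 265 in MI and 462 in Sham, and at 308 CPM in MI-E, 306 in MI and 521 in Sham among other-lineage-low cells. S1pr5, an egress receptor of NK cells, had 28 UMIs in MI-E, 13 in MI and 16 in Sham, too few to tell the libraries apart.

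The median transcription factor was above Sham in MI-E and below it in MI. Of 26 measured, 15 were higher and 11 lower in MI-E over Sham (median 0.13) and 8 higher and 18 lower in MI over Sham (median -0.31). Over all genes 56.4% were higher for MI-E and 54.2% for MI. The medians were 0.25 for MI-E and -0.06 for MI among other-lineage-low NK cells. Id2, needed for innate lymphoid cells, was at 957 CPM in MI-E, 783 in MI and 902 in Sham. Ets1, an ETS factor, was at 295 CPM in MI-E, 219 in MI and 338 in Sham. Zeb2, a factor of terminal maturation, was at 259 CPM in MI-E, 224 in MI and 281 in Sham. Eomes, a T-box factor of NK identity, was at 233 CPM in MI-E, 142 in MI and 239 in Sham. Irf8, an interferon regulatory factor, was lower in both infarct libraries, at 307 CPM in MI-E, 279 in MI and 567 in Sham, and at 357 CPM in MI-E, 338 in MI and 670 in Sham among other-lineage-low cells, with ratios there of 0.533 for MI-E over Sham (0.423 to 0.672) and 0.504 for MI over Sham (0.372 to 0.677).

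Most mature NK genes had lower levels in both infarct libraries in all NK cells, and the median of immature ones changed sign between the readings. Mature NK genes had 5 of 18 higher in MI-E over Sham (median -0.20) and 4 of 18 in MI over Sham (median -0.44), beside 56.4% of all genes for MI-E and 54.2% for MI, with medians of -0.13 for MI-E and -0.25 for MI among other-lineage-low cells. Without cells with over 5 UMIs of S100a8 and S100a9 the median for MI over Sham turned to 0.037. Immature NK genes had 8 of 18 higher in MI-E over Sham (median -0.15) and 6 of 18 in MI over Sham (median -0.29). Among other-lineage-low cells 11 were higher in MI-E and 13 in MI (medians 0.27 for MI-E and 0.24 for MI), beside 58.6% of all genes for MI-E and 56.5% for MI. Lgals1, the gene of galectin-1 and a member of the mature list, was at 486 CPM in MI-E, 352 in MI and 1094 in Sham and at 525 CPM in MI-E, 421 in MI and 1416 in Sham among other-lineage-low cells, with ratios there of 0.371 for MI-E over Sham (0.311 to 0.442) and 0.297 for MI over Sham (0.230 to 0.380). Thinned to 1000 UMIs, Lgals1 was in 36.6% of these NK cells in MI-E, 26.2% in MI and 58.2% in Sham (48.2% in MI-E, 33.8% in MI and 76.5% in Sham without thinning), and in 10.0% of B cells in MI-E, 9.71% in MI and 14.4% in Sham. Lgals1 was lower in T cells too, at log2 ratios to Sham of -0.95 for MI-E and -1.08 for MI. Those of all NK cells were -1.17 for MI-E and -1.64 for MI.

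Ahnak, a large scaffold protein of the mature list, was at 683 CPM in MI-E, 583 in MI and 800 in Sham. Of the immature list, the surface protein gene Ly6e was at 790 CPM in MI-E, 624 in MI and 763 in Sham. Ctla2a, a cathepsin inhibitor, was at 470 CPM in MI-E, 407 in MI and 422 in Sham. Emb, the gene of embigin, was at 470 CPM in MI-E, 390 in MI and 304 in Sham and was higher in both infarct libraries.

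NK cells also varied among themselves along maturation, and this was read within each library. Cells with at least 2 UMIs of Itgam, Klrg1, Cx3cr1, S1pr5 and Zeb2 (mature-marked) numbered 77 in MI-E, 41 in MI and 45 in Sham, and cells with none of them and at least 1 UMI of Cd27, Ctla2a, Emb and Xcl1 (immature-marked) numbered 114 in MI-E, 56 in MI and 56 in Sham. Median depths of mature-marked cells were 3954 UMIs in MI-E, 4303 in MI and 2029 in Sham, and those of immature-marked cells were 1617 UMIs in MI-E, 1441.5 in MI and 1939.5 in Sham. Itgam, Cx3cr1 and Zeb2 are also myeloid genes, so other-lineage-low cells are given beside them, with 36 mature-marked cells in MI-E, 21 in MI and 29 in Sham and 110 immature-marked cells in MI-E, 54 in MI and 51 in Sham.

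In genes that the split did not use, several differences had the same direction in all 3 libraries and both readings. Ltb was lower in mature-marked cells, at 0.154 times its immature-marked level in MI-E, 0.141 in MI and 0.0849 in Sham, and at 0.182 times in MI-E, 0.162 in MI and 0.0575 in Sham among other-lineage-low cells. Klrk1 was at 0.239 times in MI-E, 0.248 in MI and 0.401 in Sham, Ctsw at 0.235 times in MI-E, 0.194 in MI and 0.319 in Sham, and Cd7, an early lymphoid surface protein, at 0.232 times in MI-E, 0.123 in MI and 0.257 in Sham. The intervals of these 4 genes lie below 1 in both readings. Ly6c2, a surface protein gene of mature NK cells that monocytes also express, was higher in mature-marked cells, at 3.39 times in MI-E (2.54 to 4.61), 8.24 in MI (4.40 to 17.4) and 6.62 in Sham (3.72 to 12.8), and at 2.68 times in MI-E, 6.41 in MI and 6.27 in Sham among other-lineage-low cells.

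Gzma along maturation differed between the libraries. In all NK cells it was at 0.591 times its immature-marked level in mature-marked cells of MI-E (0.511 to 0.685), 0.687 in MI (0.546 to 0.870) and 1.31 in Sham (1.15 to 1.50). Among other-lineage-low cells the ratio was 0.958 in MI-E (0.801 to 1.14), 1.83 in MI (1.41 to 2.39) and 1.99 in Sham (1.72 to 2.30), so the direction in MI depended on the cells left out. The levels there were 1693 CPM in mature-marked cells of MI-E, 2301 in MI and 5947 in Sham, and 1768 CPM in immature-marked cells of MI-E, 1255 in MI and 2988 in Sham, so both classes were lower in the infarct libraries than in Sham. In all NK cells of the infarct libraries, Il7r UMIs lay mostly in immature-marked cells, with 52 against 5 in mature-marked cells in MI-E and 33 against 3 in MI. Sham had 6 against 4, too few to tell the classes apart. These are UMI counts of classes that differ in number and depth of cells.

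The median glucocorticoid response gene was higher in both infarct libraries, in NK cells and in T cells. Of 23 measured in NK cells, 17 were higher in MI-E over Sham (median 0.26) and 15 in MI over Sham (median 0.25), beside 56.4% of all genes for MI-E and 54.2% for MI and medians of all genes of 0.07 for MI-E and 0.05 for MI. The medians were 0.43 for MI-E and 0.40 for MI among other-lineage-low NK cells, 0.36 for MI-E and 0.29 for MI in T cells, and 0.21 for MI-E and 0.06 for MI in B cells. Tsc22d3, which encodes GILZ, was at 128 CPM in MI-E, 137 in MI and 42.0 in Sham, with ratios to Sham of 3.04 for MI-E (1.78 to 5.54) and 3.27 for MI (1.85 to 6.10). Without cells with T cell receptor constant RNA its log2 ratio was 0.21 for MI-E over Sham. Fkbp5, a chaperone partner of the glucocorticoid receptor, was at 113 CPM in MI-E, 84.3 in MI and 28.9 in Sham, with ratios of 3.92 for MI-E (2.08 to 8.15) and 2.92 for MI (1.45 to 6.38). The log2 ratios of Tsc22d3 in T cells, 1.55 for MI-E over Sham and 1.84 for MI over Sham, lay close to the 1.61 for MI-E and 1.71 for MI of NK cells, and in B cells they were 1.31 for MI-E and 1.32 for MI.

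Txnip, a regulator of glucose uptake, was at 357 CPM in MI-E, 467 in MI and 252 in Sham. The RNA decay factor Zfp36l2 was at 786 CPM in MI-E, 759 in MI and 640 in Sham. The antiproliferative gene Btg1 was at 946 CPM in MI-E, 790 in MI and 797 in Sham, so the abundant members of this list differed less.

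Immediate early genes, which are also induced while tissue is dissociated, were lower in NK, T and B cells of both infarct libraries. In NK cells 19 of 21 were lower in MI-E over Sham (median -0.60) and 18 of 21 in MI over Sham (median -0.81), beside 43.6% of all genes lower for MI-E and 45.8% for MI. In T cells 18 of 21 were lower in MI-E (median -0.46) and 21 of 21 in MI (median -0.64), beside 40.7% of all genes for MI-E and 52% for MI, and in B cells 18 of 21 in MI-E (median -0.45) and 19 of 21 in MI (median -0.84), beside 42.1% of all genes for MI-E and 54.9% for MI. Jun was at 54.5 CPM in MI-E, 40.9 in MI and 220 in Sham, and at 46.4 CPM in MI-E, 46.7 in MI and 144 in Sham among other-lineage-low NK cells. Junb was at 349 CPM in MI-E, 311 in MI and 504 in Sham. Jund was at 285 CPM in MI-E, 277 in MI and 409 in Sham, and all 3 encode subunits of the factor AP-1. Klf2 belongs to this list too, and it was lower in NK and B cells but near level in T cells. Its log2 ratios were -0.82 for MI-E over Sham and -0.80 for MI over Sham in NK cells, -0.45 for MI-E and -0.85 for MI in B cells, and 0.01 for MI-E and -0.08 for MI in T cells. The gap of NK to T cells was -0.83 for MI-E (-1.18 to -0.49) and -0.72 for MI (-1.11 to -0.33).

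Type I interferon response genes were lower as well. Of 28 measured, 23 were lower in MI-E over Sham (median -0.49) and 22 in MI over Sham (median -0.58), beside 43.6% of all genes for MI-E and 45.8% for MI, with medians of -0.21 for MI-E and -0.37 for MI among other-lineage-low NK cells, -0.50 for MI-E and -0.51 for MI in T cells and -0.69 for MI-E and -0.70 for MI in B cells. Ifi27l2a, an interferon-induced membrane protein, was at 42.6 CPM in MI-E, 74.7 in MI and 420 in Sham, but 1 cell held 35.0% of its UMIs in Sham. Bst2, which encodes tetherin, was at 38.6 CPM in MI-E, 48.2 in MI and 142 in Sham. The more abundant members Ly6e (above), Ifitm3, an entry inhibitor of viruses, at 451 CPM in MI-E, 424 in MI and 653 in Sham, and Slfn2, a schlafen of resting T cells, at 269 CPM in MI-E, 253 in MI and 231 in Sham, differed less.

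Of 23 MHC class I genes, 16 were lower in MI-E over Sham (median -0.40) and 19 in MI over Sham (median -0.35), beside 43.6% of all genes for MI-E and 45.8% for MI. Without cells with T cell receptor constant RNA the median turned to 0.031 for MI over Sham. B2m, the light chain, was at 1393 CPM in MI-E, 1089 in MI and 1928 in Sham. The heavy chain gene H2-K1 was at 1738 CPM in MI-E, 1594 in MI and 2012 in Sham. H2-D1 was at 1362 CPM in MI-E, 1390 in MI and 1852 in Sham. H2-Q7 was at 359 CPM in MI-E, 325 in MI and 590 in Sham. All of these lay below Sham in both infarct libraries, but among other-lineage-low NK cells H2-K1 was nearly level, at 2446 CPM in MI-E, 2550 in MI and 2573 in Sham. H2-Q7 was level with Sham without cells with over 5 UMIs of S100a8 and S100a9, at log2 ratios of -0.039 for MI-E and -0.017 for MI. Reads of the H2 heavy chains, which are near copies, may be split between them. AW112010, an RNA known from activated lymphocytes, was at 1299 CPM in MI-E, 1643 in MI and 3208 in Sham, and its log2 ratio for MI over Sham was -0.16 without cells with over 5 UMIs of S100a8 and S100a9. It was lower in T cells too, at log2 ratios to Sham of -0.97 for MI-E and -0.88 for MI.

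Glycolysis genes were mostly higher in both infarct libraries in all NK cells, but this moved with the cells left out. Of 15 measured, 14 were higher in MI-E over Sham (median 0.57) and 13 in MI over Sham (median 0.66), beside 56.4% of all genes for MI-E and 54.2% for MI, against medians of 0.25 for MI-E and 0.29 for MI among other-lineage-low NK cells. Gapdh was at 905 CPM in MI-E, 1180 in MI and 609 in Sham, and at 613 CPM in MI-E, 649 in MI and 543 in Sham among other-lineage-low cells, where the intervals of its ratios hold 1 (1.13, 0.910 to 1.41, for MI-E over Sham and 1.20, 0.928 to 1.54, for MI over Sham). Without cells with over 5 UMIs of S100a8 and S100a9 the list median turned to -0.11 for MI-E over Sham and was 0.19 for MI over Sham, and Gapdh lay below Sham in both, at log2 ratios of -0.56 for MI-E and -0.34 for MI. Pkm, the last enzyme of the pathway, was at 426 CPM in MI-E, 484 in MI and 231 in Sham, and at 252 CPM in MI-E, 384 in MI and 203 in Sham there. Gpi1, an isomerase of the pathway, was at 414 CPM in MI-E, 465 in MI and 220 in Sham.

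Among cold-inducible RNA-binding protein genes, Rbm3 was at 756 CPM in MI-E, 966 in MI and 456 in Sham, and its log2 ratio for MI over Sham was 0.11 without cells with over 5 UMIs of S100a8 and S100a9. Cirbp was at 216 CPM in MI-E, 212 in MI and 123 in Sham, while Srsf5, a splicing factor, was at 452 CPM in MI-E, 313 in MI and 430 in Sham. Genes of the G2 and M phases were mostly lower in MI than in Sham in both readings. The median of MI-E over Sham changed sign between the readings. Of 26 measured, 17 were higher in MI-E over Sham (median 0.19) and 2 in MI over Sham (median -0.34), beside 56.4% of all genes for MI-E and 54.2% for MI. Among other-lineage-low cells 8 were higher in MI-E (median -0.52) and 3 in MI (median -1.03), beside 58.6% of all genes for MI-E and 56.5% for MI. With other gates the median for MI over Sham turned positive, at 0.15 with at least 1 UMI and 0.011 with at least 3 UMIs. Hmgb2, a chromatin protein of dividing cells, was at 1812 CPM in MI-E, 1438 in MI and 1521 in Sham. The proliferation marker Mki67 was at 202 CPM in MI-E, 176 in MI and 220 in Sham. The topoisomerase Top2a was at 198 CPM in MI-E, 140 in MI and 223 in Sham. MI was thus lowest in each of these genes, while the order of MI-E and Sham differed from gene to gene. Thinned to 1000 UMIs, 6.81% of other-lineage-low NK cells in MI-E, 11.2% in MI and 9.18% in Sham had a UMI of Mki67 or Top2a, against 9.42% in MI-E, 15.0% in MI and 15.3% in Sham without thinning.

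**Figure D4:**
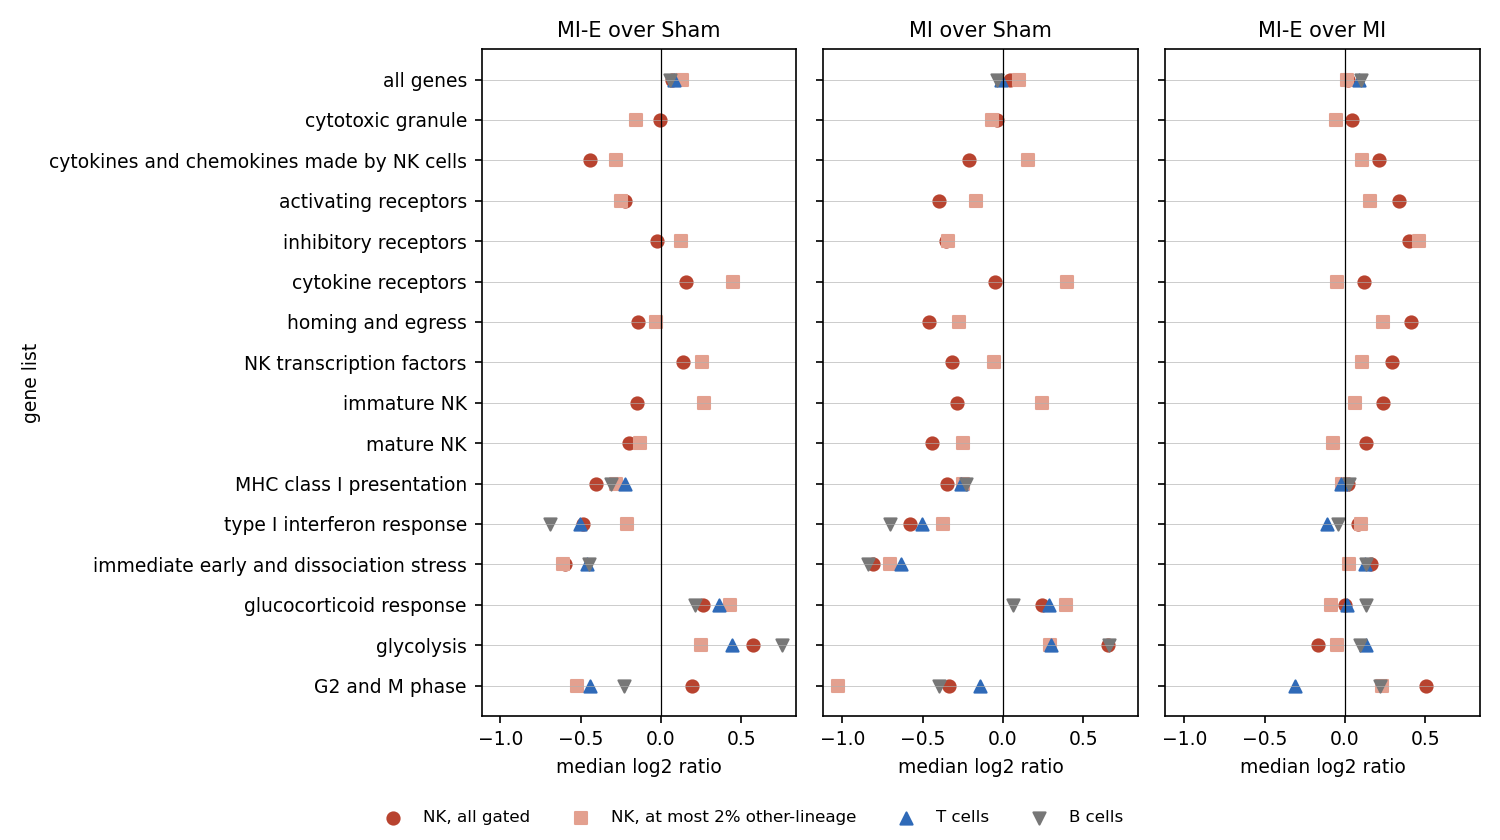
Points give the median log2 ratio of the measured members of each gene list, for MI-E over Sham, MI over Sham and MI-E over MI, in all NK cells and other-lineage-low NK cells; T and B cells are shown for lists that all lymphocytes share. Glucocorticoid genes lie right of 0 and immediate early and interferon genes left of 0 in every cell set against Sham; for MI-E over MI these lists lie within 0.17 of 0.

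Set against MI, NK cells of MI-E had more RNA of several surface receptors. Klra8 was at 416 CPM in MI-E against 193 in MI, a ratio of 2.16 (1.69 to 2.80), and of 1.73 among other-lineage-low NK cells (1.31 to 2.31). Ccr2 was at 742 CPM in MI-E against 446 in MI (1.67, 1.41 to 1.98). Itgal, the integrin chain of LFA-1, was at 424 CPM in MI-E against 250 in MI (1.69, 1.35 to 2.14). It was read in 66.19% of NK cells in MI-E, 45.21% in MI and 68.15% in Sham. For Klra8 and Itgal, MI thus lay below Sham as well as below MI-E, while Ccr2 was highest in MI-E. Without the other-lineage cells Ccr2 had a ratio of 1.34 (1.07 to 1.70) and Itgal of 1.52 (1.17 to 2.00).

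Some regulators were higher in MI-E than in MI too. Eomes was at 233 CPM in MI-E against 142 in MI (1.64, 1.21 to 2.24), with Sham close to MI-E as given above. Pim1, a survival kinase induced by cytokines, was at 414 CPM in MI-E against 212 in MI (1.95, 1.54 to 2.50), and Chd3, a chromatin remodeller of the NuRD complex, at 108 CPM in MI-E against 26.5 in MI (4.07, 2.16 to 8.47). Chd3 was at 160 CPM in Sham and was read in 65 NK cells in MI-E, 10 in MI and 41 in Sham, so it was the MI library that stood low. Ccl4 was at 129 CPM in MI-E against 60.2 in MI (2.14, 1.37 to 3.47), below Sham in both.

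Some abundant NK genes were lower in MI-E than in MI. Among other-lineage-low cells Ccl5 was at 8187 CPM in MI-E against 11188 in MI (0.732, 0.693 to 0.773). Fcer1g was at 1603 CPM in MI-E against 2187 in MI (0.733, 0.648 to 0.831). In the same cells Ifngr1 was at 567 CPM in MI-E against 867 in MI (0.654, 0.533 to 0.802) and Txnip stood at 457 CPM in MI-E against 654 in MI (0.698, 0.554 to 0.882). In all NK cells Srgn was at 346 CPM in MI-E against 605 in MI (0.572, 0.479 to 0.683).

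By list, 22 of 26 transcription factors were higher in MI-E over MI (median 0.30), 16 of 22 homing genes (median 0.41), 13 of 17 activating receptors (median 0.34) and 8 of 11 inhibitory receptors (median 0.40), beside 52.1% of all genes and a median of 0.02. Among other-lineage-low NK cells the medians were 0.11 for transcription factors, 0.23 for homing genes, 0.16 for activating receptors and 0.46 for inhibitory receptors, beside 51.1% of all genes higher and a median of 0.01. The lists that differed from Sham were nearer 0 between the infarct libraries, at 0.16 for immediate early genes, 0.08 for interferon genes and 0.00 for glucocorticoid genes. In T cells 61.8% of all genes were higher in MI-E over MI, and in B cells 68.3%.

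**Figure D5:**
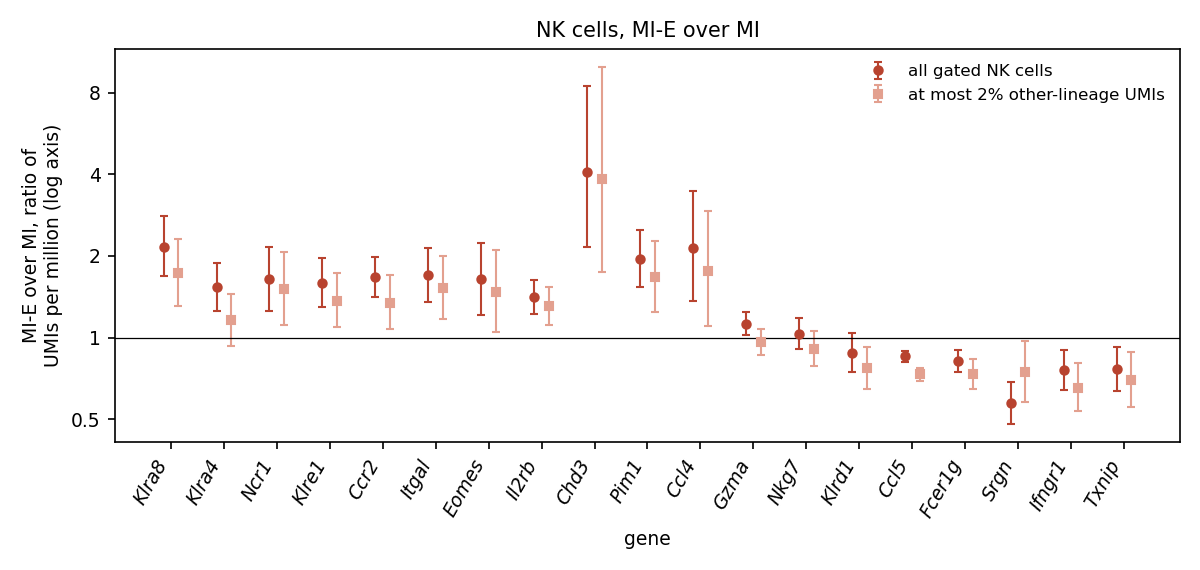
Points give the ratio of CPM in MI-E over MI on a log axis for 19 genes, in all NK cells and in those with at most 2% other-lineage UMIs, with exact 95% intervals for counting error. Klra8, Itgal, Ccr2, Chd3 and Pim1 lie above 1 and Ccl5, Fcer1g, Ifngr1 and Txnip below 1 in both sets. Ncr1 and Klre1 are genes of the rule that selected the cells, so their points are a description and not a result.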

How the data were processed

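For each of the 3 libraries the authors deposited a table of raw UMI counts, unnormalized; the submitters' processing notes name Cell Ranger 5.0.1 and mm10, and further steps on the reads are not known here. The tables hold 32285 genes and 22857 (MI-E), 23810 (MI) or 25721 (Sham) barcodes, with 109451500 UMIs in MI-E, 127330601 in MI and 99657072 in Sham. Kept cells had a median of 2911 UMIs in MI-E, 3451 in MI and 2572 in Sham.

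The members and gene lists were chosen with earlier results of these data known. T and B cells needed at least 2 UMIs of the Cd3 or the Cd79 genes and none or few of the other gates' genes. Doublets were kept, since the rule has no doublet step, and were removed with Scrublet (scanpy 1.11.5) as an alternative. UMIs were summed per library and cell set and divided by the total of that set (CPM). Intervals are exact at 95%: binomial (Clopper-Pearson) for a share, Poisson for a level and conditional binomial for a ratio. Those of ratios were run on simulated Poisson counts, the model they assume, with no clumping of UMIs in cells. Their coverage for genes that a few cells carry was not tested. UMIs of 1 library are not replicates. Lists count members outside the gate at 20 CPM or more, averaged over the libraries.

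Ranked genes averaged 50 CPM or more in the pair compared and were ordered by the interval bound nearest 1, 10 each way; gate genes, receptor segments, mitochondrial, ribosomal and model genes, and genes below 0.5 times their level over all cells in both libraries, were left out. The 3 or more most abundant members of each list described were named, and other members for their role; members of the glucocorticoid, early, interferon, class I, glycolysis and cold lists beyond the top 3, with AW112010, Serpinb6b, Ptpn22 and Chd3, were picked after their values were seen. Some genes that these rules name are not reported here. Alternatives were other gate limits, a stricter cell filter, doublets removed, cells with S100a8 and S100a9 or T cell receptor RNA left out, thinning, other scalings, equal weight of cells, the richest cell left out and other CPM minimums. Computation used Python 3.11.15 with numpy 2.4.6, pandas 2.3.3, scipy 1.17.1 and, for figures, matplotlib 3.10.9.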

Additional observations from a re-analysis of the deposited data

How the results depend on the processing

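No paired analysis was possible because each group is 1 library. Of 135 gene ratios under the alternatives run, 1110 values stayed inside the counting interval of the main value, 432 left it and 40 changed sign. Of 66 list medians the counts were 670, 109 and 13, with an interval taken over list members. Of 6 share ratios, 31 values stayed inside and 17 left it. A change of sign was counted, and is named below for genes, only where the main interval lay wholly on 1 side of no difference. Other changes of sign, as for the NK share of cells in MI over Sham, were counted as inside or outside. The cause of these changes was not tested, apart from fewer cells or genes entering a count. As log2 ratios, the NK share of cells for MI over Sham (0.21) was 0.63 with a gate of 1 UMI, -0.47 with 3 UMIs, -0.77 without S100a8 and S100a9 cells, 0.62 without T cell receptor RNA and -0.15 after thinning; the share of lymphocytes (1.37) was 1.77, 0.71, 0.41 and 1.79 under the first 4. For MI-E over MI the share of cells (0.99) was 1.53 (3 UMIs), 1.68 (S100), 0.58 (T cell receptor) and 1.37 (thinned), and of lymphocytes (0.57) 1.11, 1.25 and 0.18 under the first 3; for MI-E over Sham the share of lymphocytes (1.94) was 2.37 after thinning. Genes past 2-fold in MI-E over MI (52) numbered 27 (gate of 1 UMI), 116 (3 UMIs), 133 (doublets removed), 444 (S100), 256 (T cell receptor), 616 (thinned), 142 (equal weight), 18 (minimum of 100 CPM), 3649 (no minimum) and 128 (other-lineage cells left out). In MI over Sham (184) they numbered 280 (3 UMIs), 613 (S100), 583 (T cell receptor), 892 (thinned), 277 (equal weight), 82 (100 CPM) and 4291 (no minimum), and in MI-E over Sham (143) 322 (S100), 454 (T cell receptor), 585 (thinned), 218 (equal weight), 65 (100 CPM) and 4230 (no minimum). List medians in MI over Sham were, for G2 and M genes, 0.15 (1 UMI) and 0.011 (3 UMIs); without S100 cells, 0.034 for activating receptors, 0.037 for mature NK, 0.19 for glycolysis and -0.89 for mTORC1 and MYC targets; -0.38 (thinned) and -0.34 (equal weight) for the last; 0.031 for MHC class I (T cell receptor); and 0.29 for glycolysis (other-lineage). In MI-E over Sham they were 0.23 for activating receptors and -0.11 for glycolysis (S100), 0.16 for glycolysis (equal weight) and 0.25 (other-lineage), -1.06 for immediate early genes (T cell receptor) and -0.21 for interferon genes (other-lineage). In MI-E over MI they were -0.16 for G2 and M (thinned), and -0.024 for activating receptors and 0.081 for oxidative phosphorylation (T cell receptor). Genes that changed sign in MI-E over MI were Cd74 (0.43 with 1 UMI, 3.59 S100, 2.63 thinned, 1.57 other-lineage), H2-Ab1 (0.12, 1.89, 3.55, 0.76), H2-Eb1 (0.20, 2.79, 1.48, 1.37), Elane (0.81 doublets, 0.69 other-lineage), Mpo (0.69, 0.59), Snhg4 (0.28, 0.23, and 0.33 thinned), Ctsg (1.32 S100), Cstdc4 (-0.56 T cell receptor), Hbb-bs (-1.45 thinned, -1.21 other-lineage), Hbb-bt (-1.01, -1.50), Hba-a1 (-0.54 other-lineage) and Hba-a2 (-0.72). In MI over Sham, without S100 cells, Dstn was -0.23, Gapdh -0.34, Gzmb 0.47, Mpo -0.052 and Prf1 0.43; Klra1 was 0.65 (T cell receptor), and without other-lineage cells Cpa3 was 3.20 and Mcpt8 0.29. In MI-E over Sham, Gapdh was -0.56 (S100), Klra1 0.85 (T cell receptor), and without other-lineage cells Cpa3 was 0.53, Mcpt8 1.53 and S100a9 -0.10. Other scalings moved all log2 ratios of other-lineage-low cells by -0.13 (MI over Sham) and -0.10 (MI-E over Sham) with TMM, and of all NK cells by -0.07 (MI over Sham) and -0.04 (MI-E over Sham). The 3 libraries without replicates limit every comparison to these libraries, and genes of few UMIs, such as Rab27a, Il7r and Ifng, have wide intervals.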
